A study of Mus musculus with 2 samples.

Results

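The axon initial segment is the stretch of axon where action potentials start, and the nodes of Ranvier are the gaps in myelin where they are renewed. The genes described here encode the scaffold that holds both in place, and they were chosen by symbol: the ankyrins Ank1, Ank2 and Ank3, the spectrins Sptan1, Sptbn1 and Sptbn4, and the adhesion molecules Nfasc, Cntnap1 and Cntnap2. They are 9 of the 55536 annotated genes measured, with 140 of the 141864 transcripts. The RNA was that of the left cortex of 2 B6CASTF1/J females, the F1 hybrid of C57BL/6J and CAST/EiJ, aged 8 to 10 months, and 300 ng of ribosome-reduced total RNA with ERCC spike-ins went into each library. Replicate 2 was animal 5 and replicate 1 was animal 1. Both carry the same donor entry in the labels, so the numbers alone mark them as separate animals. No treatment or mutant was set against a control, so the comparisons are between genes, between transcripts and between the animals.

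As background, ankyrin-G, the product of Ank3, gathers sodium and potassium channels at the initial segment and the nodes, and its giant forms, made by including a single very long exon, are the ones needed there. Ankyrin-B, the product of Ank2, also has a giant form in axons, while ankyrin-R, the product of Ank1, is best known from the red cell membrane. Spectrins are rods of one alpha and one beta chain that tie ankyrins to actin. Neurofascin links the scaffold to the outside at initial segments and nodes, and a glial form of it meets Cntnap1 (Caspr) and contactin at the paranodes beside each node, with Cntnap2 (Caspr2) and potassium channels next to those.

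On mm10 the ankyrins lie at chr8:22974844-23150497 (Ank1, plus strand), chr3:126921612-127499350 (Ank2, minus strand) and chr10:69398773-70027438 (Ank3, plus strand). The spectrins lie at chr2:29965560-30031451 (Sptan1, plus strand), chr11:30099395-30268175 (Sptbn1, minus strand) and chr7:27356383-27447686 (Sptbn4, minus strand). The adhesion molecules lie at chr1:132564690-132741797 (Nfasc, minus strand), chr11:101170523-101190724 (Cntnap1, plus strand) and chr6:45059357-47304213 (Cntnap2, plus strand). Cntnap2 is the longest of them at 2245 kb and Cntnap1 the shortest at 20.2 kb.

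The forms of these genes differ by exons that the reference sequence shows directly. The sequences below are GENCODE M21 transcript sequence on mm10, 5′ to 3′, with bases of the named exon in capitals and bases of the exons joined to it in lower case. The giant exon of Ank2 (chr3:126941610-126947807, minus strand, coding, 6198 nt) is shown by its first and last 60 bases, followed by the junction that skips it.
Ank2 giant exon start: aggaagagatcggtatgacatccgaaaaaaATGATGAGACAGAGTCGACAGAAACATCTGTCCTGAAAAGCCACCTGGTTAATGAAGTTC
Ank2 giant exon end: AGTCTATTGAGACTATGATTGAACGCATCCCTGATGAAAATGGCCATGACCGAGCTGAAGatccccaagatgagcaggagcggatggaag
Ank2 junction without it: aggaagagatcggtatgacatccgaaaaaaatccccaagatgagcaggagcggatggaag

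The giant exon of Ank3 (chr10:69986089-69993762, plus strand, coding, 7674 nt) also exists in a shortened version of 2550 nt (chr10:69986083-69988632), which keeps 2544 nt of it. The full and shortened exons end in different sequence and join the same next exon, as the last 30 bases show.
Ank3 giant exon start: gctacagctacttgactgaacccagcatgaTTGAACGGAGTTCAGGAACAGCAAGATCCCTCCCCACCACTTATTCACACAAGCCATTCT
Ank3 giant exon end: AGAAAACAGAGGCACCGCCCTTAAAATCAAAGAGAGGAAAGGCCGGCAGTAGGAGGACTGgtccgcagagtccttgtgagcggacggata
Ank3 shortened exon end: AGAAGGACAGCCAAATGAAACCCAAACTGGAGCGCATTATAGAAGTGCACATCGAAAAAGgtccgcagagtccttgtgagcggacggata
Ank3 junction without it: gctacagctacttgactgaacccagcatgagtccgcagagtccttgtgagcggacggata

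The remaining exons tell apart forms of Nfasc and Sptan1. In Nfasc, an exon of 237 nt (chr1:132588074-132588310, minus strand) coded for threonine, serine or proline at 46 of its 78 whole codons (59%), against 24% of the 1240 codons of the whole transcript. In Sptan1, an exon of 60 nt (chr2:30001100-30001159, plus strand) adds residues without changing the reading frame.
Nfasc threonine-rich exon: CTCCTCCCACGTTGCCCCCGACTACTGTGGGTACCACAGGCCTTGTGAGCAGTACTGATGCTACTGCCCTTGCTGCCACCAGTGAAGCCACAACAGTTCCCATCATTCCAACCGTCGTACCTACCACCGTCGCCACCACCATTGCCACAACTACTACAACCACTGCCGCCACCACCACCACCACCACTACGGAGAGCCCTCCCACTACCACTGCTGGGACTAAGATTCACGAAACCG
Sptan1 60-nt exon: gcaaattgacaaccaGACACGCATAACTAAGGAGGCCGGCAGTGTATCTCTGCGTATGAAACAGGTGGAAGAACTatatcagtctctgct

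All 9 genes were expressed in both animals, and they spanned a 17.3-fold range of levels. Each level is in TPM, a transcript abundance scaled for length and library size, and is printed as mean ± SD of the 2 animals (n = 2) from the deposited gene tables. Ank2 was the highest at 414 ± 16.4 TPM, and Sptan1, the alpha chain shared by the beta spectrins of the brain, followed at 385 ± 3.03 TPM. Sptbn1, the beta chain of the lattice along the axon, had 262 ± 8.49 TPM, and Ank3 had 241 ± 10.2 TPM. These 4 stood at percentiles 98 to 99.2 of the 12971 protein-coding genes with at least 1 TPM in both libraries, whose median was 16.5 TPM. The other 5 genes were lower. Cntnap1 had 82.2 ± 6.69 TPM, Nfasc 66.8 ± 1.36 TPM, Cntnap2 57.6 ± 2.86 TPM and Sptbn4, the beta chain found at initial segments and nodes, 55.3 ± 2.75 TPM. Ank1 was the lowest at 24.0 ± 0.863 TPM, at percentile 61.7.

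By animal, Ank2 had 426 TPM in replicate 2 against 403 TPM in replicate 1, and Ank3 had 234 TPM in replicate 2 against 248 TPM in replicate 1. Sptan1 had 387 TPM in replicate 2 against 382 TPM in replicate 1, and Sptbn1 had 268 TPM in replicate 2 against 256 TPM in replicate 1. Cntnap1 had 86.9 TPM in replicate 2 against 77.4 TPM in replicate 1, the widest gap of the 9 on this scale (log2 0.17). Nfasc had 67.7 TPM in replicate 2 against 65.8 TPM in replicate 1, and Ank1 had 24.6 TPM in replicate 2 against 23.4 TPM in replicate 1. The animals' ranges did not overlap between neighbours in the order of levels, except for Cntnap2 (55.6 TPM in replicate 2 against 59.6 TPM in replicate 1) and Sptbn4 (57.2 TPM in replicate 2 against 53.3 TPM in replicate 1), whose order is not resolved. The second deposited transcript table, summed per gene, gave the same order, again with only that pair overlapping, but every level was lower. Over transcripts of at least 1 kb the order changed: Sptan1 averaged 254 TPM and Sptbn1 260.4 TPM with overlapping ranges, and Cntnap2 fell below Sptbn4, at 28.4 TPM against 49.9 TPM. The ratio of the first to the second table ran from 1.08 for Nfasc to 1.62 for Sptan1, against a median of 1.11 over 12946 detected protein-coding genes. For Sptan1 the second table gave 245 TPM in replicate 2 against 231 TPM in replicate 1. In bulk tissue, fewer cells of a type and less RNA per cell cannot be told apart.

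**Figure D1:**
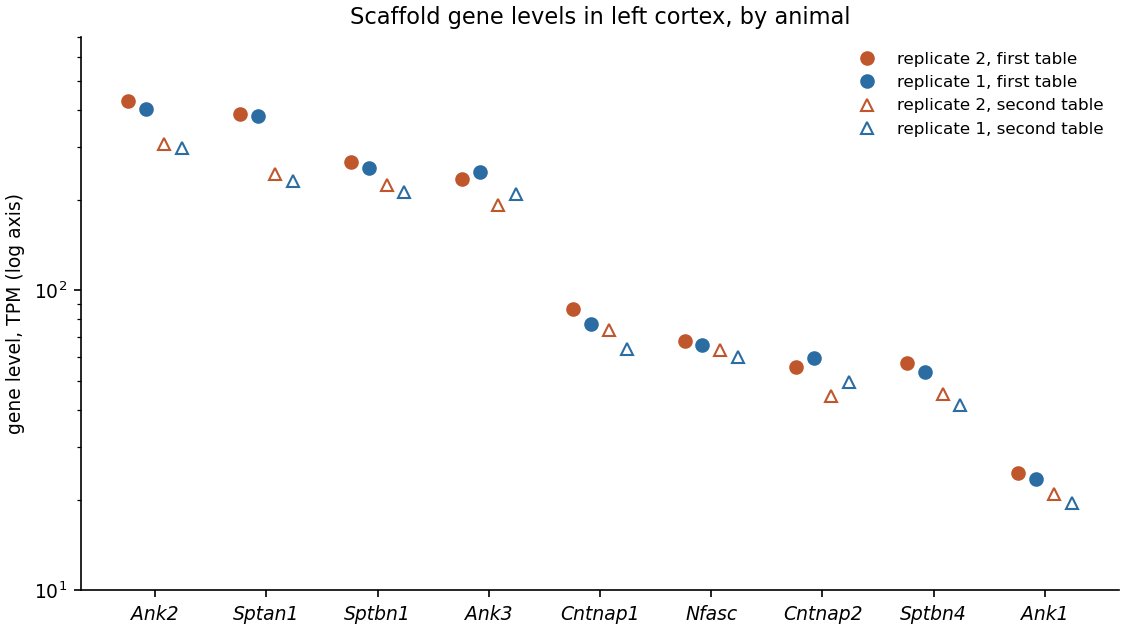
Gene level in TPM (log axis) for the 9 scaffold genes, ordered by mean in the first table. Filled circles are the first table and open triangles the second, with replicate 2 left of replicate 1. Ank2, Sptan1, Sptbn1 and Ank3 lie above 190 TPM in every measurement, and the other 5 genes below 90 TPM.

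No scaffold gene differed between the animals by 1.2-fold or more. With counts scaled by TMM, the log2 difference of replicate 2 minus replicate 1 ran from −0.12 (Ank1 and Ank2) to 0.10 (Cntnap1), with a median of −0.05 over the 9 genes. Over all 14127 genes that averaged 50 counts or more the median was 0.002. Of those genes, 15.8% were 1.2-fold or more higher in replicate 2 and 10.9% were 1.2-fold or more lower, and the count of scaffold genes was 0 in each direction. The median size of the difference, sign left aside, was 0.08 for the 9 genes and 0.15 for all genes. Each of the 9 genes held at least 2915 counts in each library, while the set of all genes reaches down to a mean of 50 counts. The sets are thus not matched for depth, and counting noise is larger among genes with few counts. Ank2 had 37892 counts in replicate 2 against 38100 counts in replicate 1, Ank3 had 23217 counts in replicate 2 and 22689 counts in replicate 1, and Sptbn4 had 5381 counts in replicate 2 and 4911 counts in replicate 1.

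Counting errors of these differences were between 0.010 and 0.038, and 5 of the 9 lay beyond 2 counting errors from 0. With 1 library per animal there is no replicate check on them and no p-value. The sign depended on the scale: 4 members (Ank1, Ank2, Sptbn1 and Nfasc) were slightly higher in replicate 2 by TPM and slightly lower by scaled counts. Scaling on the ERCC spike-ins moved the median of all genes by 0.25 and put all 9 genes above 0, with Cntnap1 at 0.36 and Sptan1 and Sptbn4 at 0.27 past 1.2-fold. On that scale 48.1% of all genes were past 1.2-fold in the same direction.

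**Figure D2:**
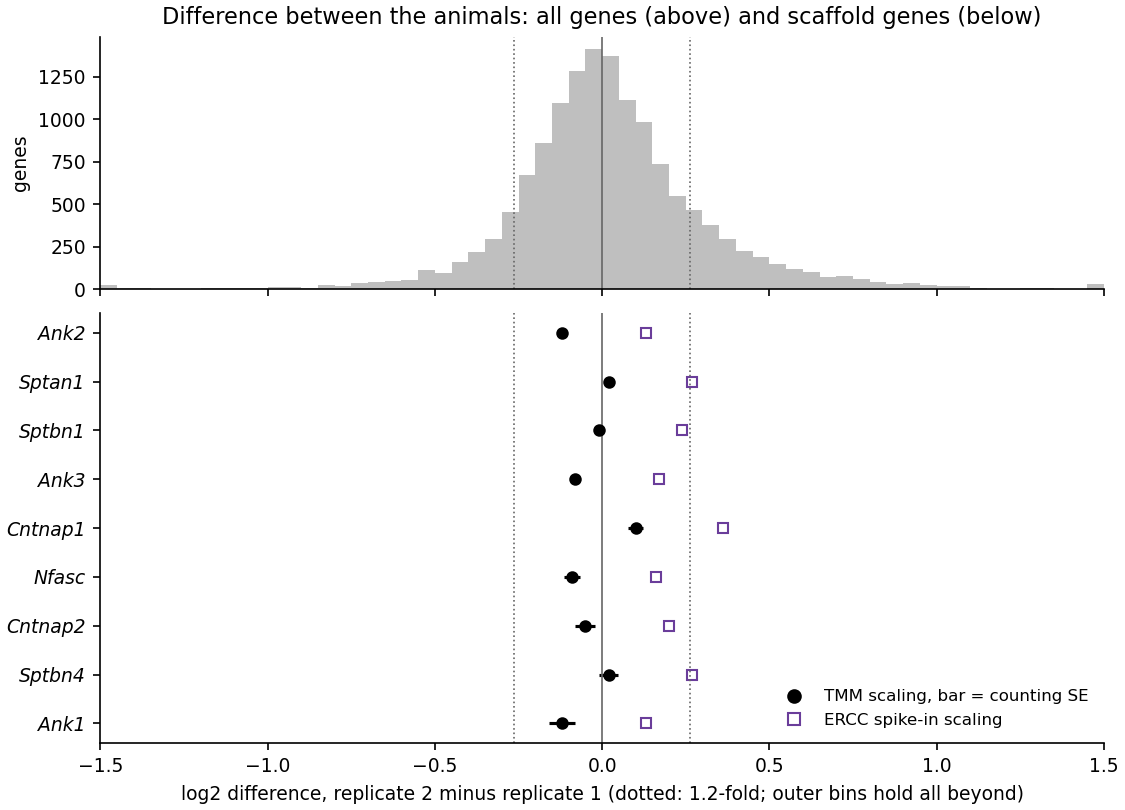
Log2 difference of replicate 2 minus replicate 1 for all 14127 genes (upper histogram, TMM) and for each scaffold gene (lower panel). Black points are TMM values with bars of 1 counting SE, open squares are spike-in scaled values and dotted lines mark 1.2-fold. All 9 TMM values lie between −0.12 and 0.10.

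Giant Ank2 transcripts drew about as many reads as all other Ank2 transcripts together. A transcript of at least 10 kb annotated length was called giant, and Ank2 had 2 of 27: Ank2-207 (12413 nt, 46 exons) and Ank2-208 (14305 nt). Ank2-207 had 59.9 TPM in replicate 2 against 62.3 TPM in replicate 1, and Ank2-208 had 18.1 TPM in replicate 2 against 19.9 TPM in replicate 1. Together they made up 18.3% of the gene's TPM in replicate 2 and 20.4% in replicate 1. Since long transcripts collect more reads, they took 49.5% of the gene's counts in replicate 2 and a like share in replicate 1. Both hold the whole 6198-nt giant exon, and no other Ank2 transcript does.

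Most other Ank2 signal sat on incomplete annotated models, so a share over all transcripts mixes whole messengers with pieces. Ank2-201, a 5775-nt model that begins inside the gene and skips the giant exon, led at 75.3 TPM in replicate 2 against 84.8 TPM in replicate 1. Ank2-216, annotated as a retained intron but lying 100% within exons of coding transcripts, had 71.3 TPM in replicate 2 against 64.9 TPM in replicate 1. Ank2-227, a coding fragment of 365 nt, had 54.7 TPM in replicate 2 (274 counts) against 27.3 TPM in replicate 1 (131 counts), and it was at 0 in both animals in the second table. Ank2-207, at a similar TPM, held 13911 counts in replicate 2 and 13926 counts in replicate 1.

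Counted only over transcripts that cross the site, the Ank2 giant exon was included in close to the same amount as it was skipped. Including transcripts summed to 78.0 TPM in replicate 2 against 82.2 TPM in replicate 1, and skipping ones to 89.0 TPM in replicate 2 against 88.6 TPM in replicate 1. Inclusion was 46.7% in replicate 2 and 48.1% in replicate 1, and the second table gave 43.5% in replicate 2 and 45.1% in replicate 1. These shares come from reads assigned to whole transcripts, not from reads counted over junctions. The 2 sides are also unlike: both including models have 46 exons, while all skipping models are partial. These are Ank2-201 (25 exons), which begins inside the gene, and the open-ended Ank2-206 (561 nt) and Ank2-204 (448 nt). How reads of a whole skipping messenger would be divided among these models was not tested.

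For Ank3 the length rule found no giant transcript, although the giant exon was in the gene's leading transcript. None of 47 annotated Ank3 transcripts reaches 10 kb. The longest, Ank3-231 (9963 nt), lacks the giant exon and had 29.0 TPM in replicate 2 against 28.4 TPM in replicate 1. The whole 7674-nt exon is in Ank3-244 alone, a model of 8612 nt and 9 exons that is open at its ends and therefore falls short of the length. Ank3-244 was the highest Ank3 transcript in both tables, with 43.2 TPM in replicate 2 against 46.6 TPM in replicate 1, or 18.5% of the gene's TPM in replicate 2 and 18.8% in replicate 1. The giant share of Ank3 was thus 0 by annotated length and 18.6% ± 0.212 (SD, n = 2) by exon content. The exon rule was chosen after the transcripts had been seen.

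The shortened giant exon was also present. Ank3-233 (8309 nt, 43 exons), which holds the 2550-nt version, had 21 TPM in replicate 2 against 18.8 TPM in replicate 1, below Ank3-244 in both animals. Transcripts that cross the site without the exon, led by Ank3-240 (6870 nt, 29.9 TPM in replicate 2 against 31.4 TPM in replicate 1) and Ank3-231, summed to 71.8 TPM in each animal. Besides Ank3-233, 4 open-ended pieces overlap the giant exon in part, of which Ank3-243 (534 nt) was the highest at 27.1 TPM in replicate 2 against 30.5 TPM in replicate 1. The exon of Ank3-236 ends at the last base of the shortened exon, as in Ank3-233. Ank3-243 and Ank3-225 begin past that base and splice within the giant exon, and Ank3-238 holds only 28 nt from the start of the 2550-nt version, most of which lies in both versions.

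Ank1 has no exon of this kind: its longest coding exon is 538 nt and its longest transcript 8366 nt, so its giant share was 0 by length. Ank1-209, a full-length model of 44 exons, led at 14.7 TPM in replicate 2 against 16.6 TPM in replicate 1. In the second table it still led, at the lower level of 8.67 TPM in replicate 2 against 7.37 TPM in replicate 1. Transcripts starting in the first of 6 start clusters, which includes Ank1-209, held 67.7% of the gene's TPM in replicate 2 and 74.7% in replicate 1, while the second table gave 63.3% in replicate 2 and 54.1% in replicate 1, so the direction between the animals differed by table. The last cluster codes for small ankyrins, known from the sarcoplasmic reticulum of muscle, which lack most of the protein. Its 3 coding transcripts summed to 4.70 TPM in replicate 2 (101 counts) against 3.67 TPM in replicate 1 (70 counts).

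**Figure D3:**
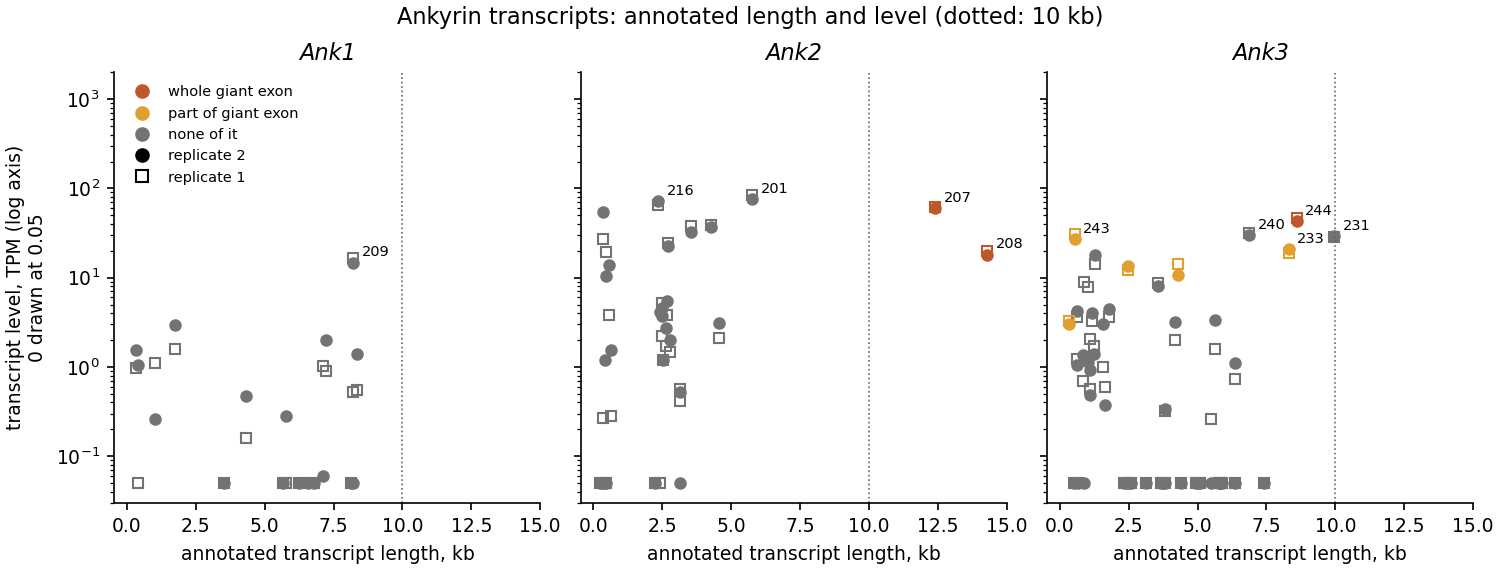
Level in TPM (log axis, 0 drawn at 0.05) against annotated length in kb for every transcript of Ank1, Ank2 and Ank3 in the first table, with circles for replicate 2 and open squares for replicate 1. Colour marks the whole giant exon, part of it or none, and the dotted line is 10 kb. Ank2-207 and Ank2-208 lie beyond the line, while Ank3-244, with the whole giant exon, lies at 8.6 kb.

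Among the spectrins, Sptan1 and Sptbn1 each had a dominant full-length form, while Sptbn4 was mainly a short form. Full-length Sptan1 transcripts with the 60-nt exon summed to 183 TPM in replicate 2 against 181 TPM in replicate 1, and those without it to 63.2 TPM in replicate 2 against 53.8 TPM in replicate 1. Inclusion was 74.4% in replicate 2 and 77.1% in replicate 1, and the second table gave 71.1% in replicate 2 and 73.4% in replicate 1. Sptan1-203 led at 182 TPM in replicate 2 against 179 TPM in replicate 1. The 7 Sptan1 models shorter than 1 kb, such as Sptan1-206 (781 nt, 56.8 TPM in replicate 2 against 70.2 TPM in replicate 1), held 31.8% of the gene's TPM in replicate 2 and 36.4% in replicate 1. In the second table their share was 9.37% in replicate 2 and 11.9% in replicate 1. The cause of this difference between the tables was not tested. Over transcripts of at least 1 kb, Sptan1 had 264 TPM in replicate 2 against 243 TPM in replicate 1, and Sptbn1 had 266 TPM in replicate 2 against 255 TPM in replicate 1.

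Sptbn1-201, the form with the long C terminus that carries the membrane-binding pleckstrin homology domain, had 242 TPM in replicate 2 against 238 TPM in replicate 1. Sptbn1-203, whose coding sequence lacks 820 nt of the long form, had 8.90 TPM in replicate 2 against 6.77 TPM in replicate 1, so the long form was 27.2-fold higher in replicate 2 and 35.2-fold higher in replicate 1. In Sptbn4, 3 transcripts code for the same last 3723 nt of the long form and lack the 3960 nt before them, which include the code for the actin-binding domain at the N terminus. They summed to 38.7 TPM in each animal, against 12 TPM in replicate 2 against 10.4 TPM in replicate 1 for the long form, led by Sptbn4-201. The ratio of short to long was 3.23 in replicate 2 and 3.72 in replicate 1, and the second table gave 2.64 in replicate 2 and 2.90 in replicate 1. The gap was smaller by counts. Short forms held 3379 counts in replicate 2 and 3254 in replicate 1, and the long form 1956 in replicate 2 and 1627 in replicate 1. The short form has 0 coding nt of its own, so over coding sequence this split rests on how shared reads were assigned. Sptbn4 was the only member whose leading transcript changed between the tables, from Sptbn4-203 to Sptbn4-202, and both of these are short forms.

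Nfasc was mainly of the form with the threonine-rich exon, which belongs to the mucin-like region of the neuronal protein at initial segments and nodes. Nfasc-202, which holds that exon and lacks a pair of exons of 116 and 205 nt (chr1:132600099-132600214 and chr1:132597765-132597969), had 32.7 TPM in replicate 2 against 37.2 TPM in replicate 1. Transcripts with the pair and without the threonine-rich exon, the arrangement of the glial paranodal form, summed to 12.2 TPM in replicate 2 against 12.8 TPM in replicate 1. The first was higher in both animals, by 2.68-fold in replicate 2 and 2.91-fold in replicate 1, and in the second table by 1.54-fold in replicate 2 and 2.27-fold in replicate 1. Nfasc-207, which has both, was at 6.23 TPM in replicate 2 and listed at 0 in replicate 1, but at 8.01 TPM in replicate 2 against 4.55 TPM in replicate 1 in the second table. The 0 was thus listed in the first table alone.

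**Figure D4:**
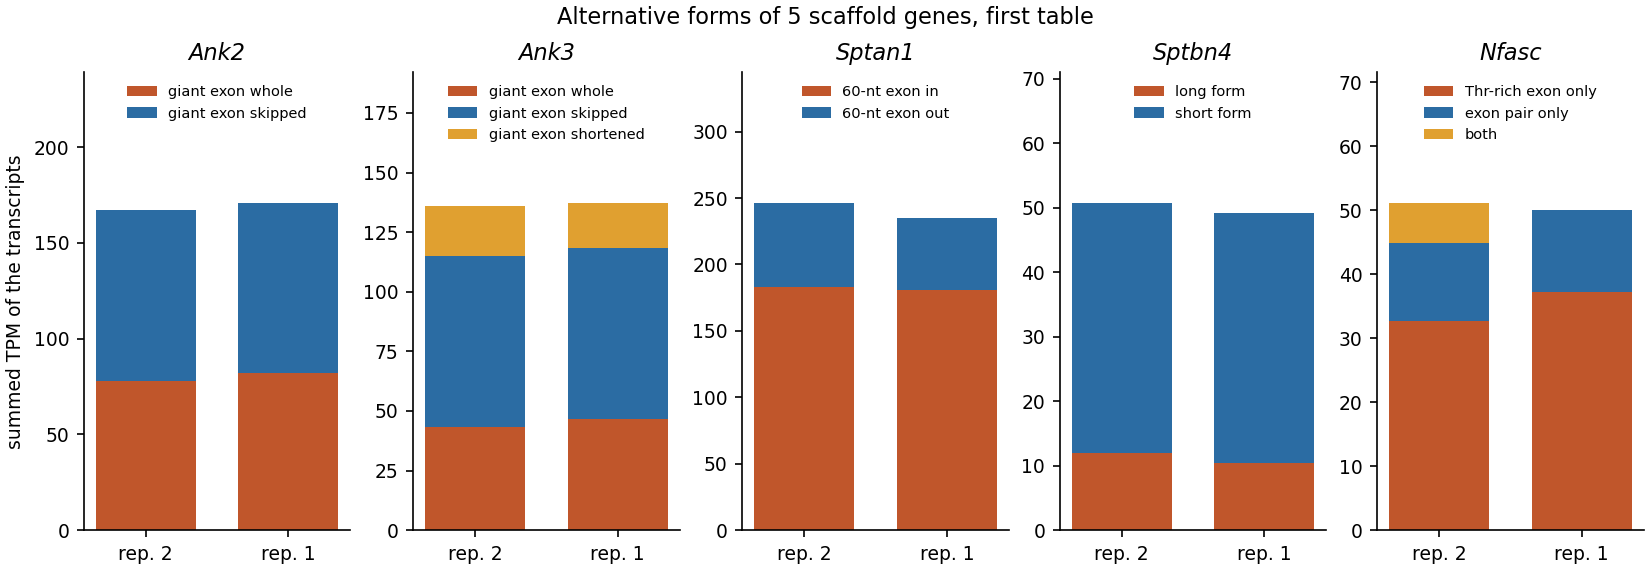
Summed TPM of alternative forms of Ank2, Ank3, Sptan1, Sptbn4 and Nfasc in the first table, stacked, with replicate 2 left and replicate 1 right. The Ank2 giant exon is in 78.0 TPM in replicate 2 and in 82.2 TPM in replicate 1, the Sptbn4 short form is above the long form in both animals, and the Nfasc form with both regions is drawn for replicate 2 alone because it is listed at 0 in replicate 1.

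By TPM, Cntnap1 had a single main transcript and Cntnap2 did not, whereas by counts both did. Cntnap1-201 carried 99.4% of the gene's TPM in replicate 2 and 99.8% in replicate 1. Cntnap2, in contrast, had its full-length transcript Cntnap2-202 at 23.0 TPM in replicate 2 against 22.7 TPM in replicate 1. That transcript held 4211 of the gene's 4724 counts in replicate 2 and 4011 of 4538 counts in replicate 1. A further 51.4% of the Cntnap2 TPM in replicate 2 sat on 3 models shorter than 1 kb, which held 299.7 counts in replicate 2 against 281 counts in replicate 1, and Cntnap2-206 (674 nt) was the highest of them. Over transcripts of at least 1 kb Cntnap2 averaged 28.4 TPM, against 81.8 TPM for Cntnap1, so the gap between the Caspr genes depends on whether the short models are counted. Cntnap1 overlaps Plekhh3 on the other strand, which averaged 6.61 TPM. Cntnap2 and Ank2 hold 24 and 14 other annotated genes on their own strand, with summed means of 19.1 TPM and 23.2 TPM. The sources used here do not say if strand was used in counting.

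Over all members, 31 coding exons were alternative, with at least 2 TPM on each side in the first table. Of these, 29 had a length that keeps the reading frame. The exceptions were the Nfasc exon pair, whose exons are included or skipped by the same transcripts and together keep the frame. The alternative exons lay in Ank3 (12), Ank2 (9), Nfasc (8) and Sptan1 (2). The 2 TPM were not always reached in each animal. The 63-nt exon of Sptan1 had 1.02 TPM of including transcripts in replicate 2 against 3.19 TPM in replicate 1. The 36-nt exon of Ank2 is in Ank2-227 alone and had 0 TPM of including transcripts in both animals in the second table. The full and shortened versions of the Ank3 giant exon are counted separately. Inclusion agreed within 5 percentage points between the animals for 26 of 31 and within 10 points between the tables for 28 of 31. These exons are not all separate measurements. Several Ank3 exons rest on Ank3-240 with the same inclusion (26.6% in replicate 2 and 27.5% in replicate 1), and several Nfasc exons also share their transcripts and values. The farthest apart between the animals was 10.4 points, the Nfasc exon pair, which Nfasc-207 moves.

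Retained-intron transcripts of these genes were mostly higher in replicate 2. Of 29 with a mean of at least 1 TPM, 23 were higher in replicate 2 in the first table and 22 in the second, with a median log2 difference of 0.47 on TPM with a pseudocount of 0.1. The same held for the transcriptome: 70.9% of 7488 such transcripts were higher in replicate 2, with a median of 0.41, against 54.1% of 24085 protein-coding transcripts, with a median of 0.04. Of the members' 49 protein-coding transcripts 23 were higher. An example is Sptbn1-206, with 8.22 TPM in replicate 2 against 4.29 TPM in replicate 1. The members' share is thus near the background share for their transcript type.

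Partner genes were nearly all expressed. Their lists were chosen with earlier results of these data known, so the share detected is a description and not a test. Of 68 genes from lists of initial segment, node, juxtaparanode, spectrin lattice and L1-family partners, 67 reached 1 TPM in both libraries, against 58.9% of all protein-coding genes, and the exception was Gldn, which encodes gliomedin of peripheral nodes (0.54 TPM in replicate 2 against 0.35 TPM in replicate 1). Among the abundant initial segment partners were Nrcam, an adhesion molecule bound by ankyrin (225 TPM in replicate 2 against 228 TPM in replicate 1), and Scn2a, a sodium channel (146 TPM in replicate 2 against 132 TPM in replicate 1). Among juxtaparanode partners Dlg4, a synaptic scaffold, stood at 402 TPM in replicate 2 against 388 TPM in replicate 1, and Kcnab2, a potassium channel subunit, at 198 TPM in replicate 2 against 173 TPM in replicate 1. Cntn1, the contactin that pairs with Cntnap1, had 147 TPM in replicate 2 against 138 TPM in replicate 1. In the spectrin lattice list, Actb and Actg1, the cytoplasmic actins, and the adducin gene Add1 were among the highest, with Add1 at 187 TPM in replicate 2 against 199 TPM in replicate 1.

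Of 66 partners with enough counts, 4 were 1.2-fold or more higher in replicate 2 and 2 lower, where the shares of all genes were 15.8% and 10.9%. The partners were not matched to all genes for depth, and most of them have far more counts than the lowest genes of that set. The higher ones were Mag, a myelin adhesion molecule (120.1 TPM in replicate 2 against 75.7 TPM in replicate 1, log2 0.57), Hapln2, a link protein of the nodal matrix (log2 0.35), Lgi3 (log2 0.34) and Adam23 (log2 0.29), both of the juxtaparanode list. The lower ones were Schip1, an ankyrin-binding protein of initial segments and nodes (90.9 TPM in replicate 2 against 114 TPM in replicate 1, log2 −0.37), and Tnr, the matrix protein tenascin-R (log2 −0.26), named after its value was seen. Oligodendrocyte markers, to which Mag also belongs, summed to 1877 TPM in replicate 2 against 1701 TPM in replicate 1, and 2 of 6 were 1.2-fold or more higher in replicate 2, but the most abundant of them, Mbp, had a log2 difference of −0.04. Excitatory neuron markers also summed higher in replicate 2, to 2397 TPM against 2209 TPM in replicate 1, with 1 of 5 past 1.2-fold. Inhibitory neuron markers summed lower, to 626 TPM in replicate 2 against 653 TPM in replicate 1. Cntnap1 had the highest log2 difference of the members, and the part of oligodendrocyte or neuronal content in it was not tested.

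The closest relatives of the members were unevenly expressed. Sptb, the red cell beta spectrin, had 47.7 TPM in replicate 2 against 47.5 TPM in replicate 1. Of 12 genes listed as red cell membrane partners of Ank1, 4 were detected, against 58.9% of all protein-coding genes. They were Sptb, Dmtn, which encodes the actin-bundling dematin (152 TPM in replicate 2 against 174 TPM in replicate 1), Epb41, a cytoskeletal protein gene (28.7 TPM in replicate 2 against 20.6 TPM in replicate 1), and Alas2. The last encodes an enzyme of heme synthesis and not a membrane partner (3.36 TPM in replicate 2 against 1.64 TPM in replicate 1). Dmtn and Epb41 are also in the spectrin lattice list. Among the others, named after their values were seen, Kel was listed at 0 in both tables, Epb42 and Rhag were listed at 0 in the first table with means of 0.486 TPM and 0.118 TPM in the second, and Slc4a1, the red cell anion exchanger, was at 0.04 TPM in replicate 2 against 0.06 TPM in replicate 1. Globin transcripts were present, with Hba-a1 at 187 TPM in replicate 2 against 149 TPM in replicate 1. Cntnap5a was the highest Caspr relative, with 12.4 TPM in replicate 2 against 12.7 TPM in replicate 1.

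**Figure D5:**
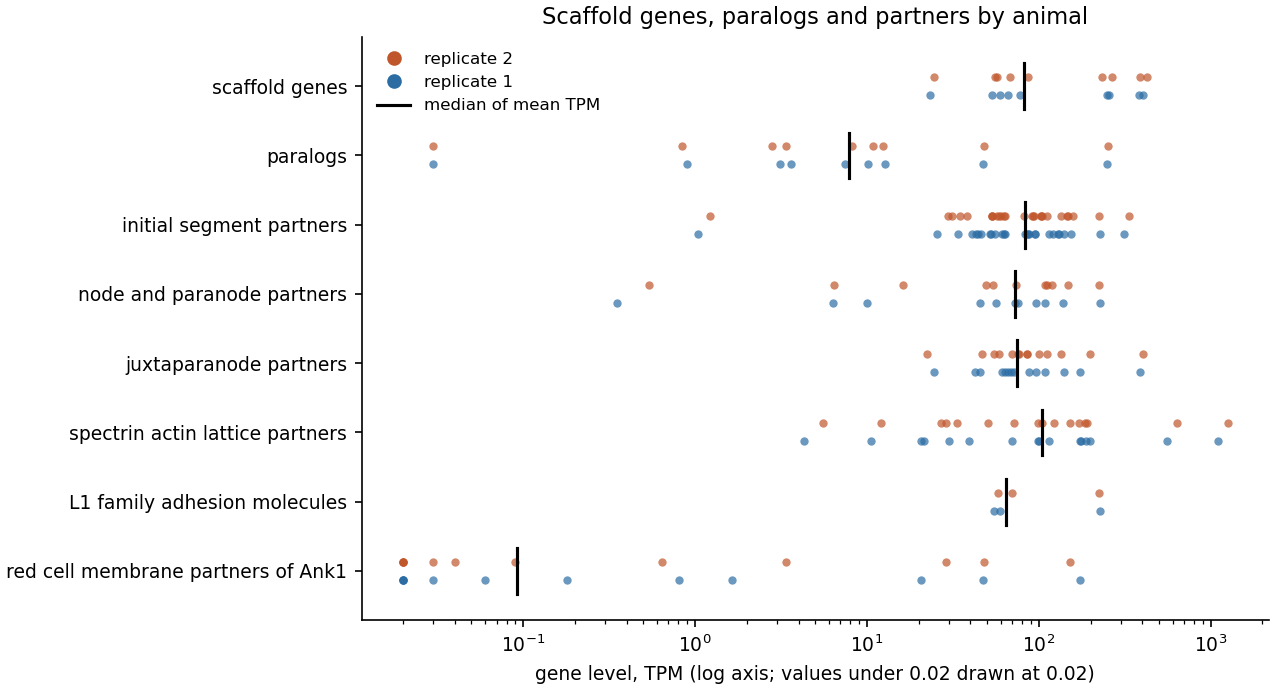
Gene level in TPM (log axis, values under 0.02 drawn at 0.02) for the scaffold genes, their paralogs and each partner list, with replicate 2 above replicate 1 and black lines at the median of the mean level. The scaffold genes' median of 82.2 TPM is near that of initial segment partners at 82.6 TPM, while the red cell list's median, with Alas2 included, is 0.0925 TPM.

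The members of each family are related in sequence. The translation of a single transcript per gene was aligned. Ank2-207 (3926 residues, with the giant exon) and Ank3-240 (1807 residues, without it) were identical at 63.7% of 1796 aligned residues. The giant exons were therefore not compared. Sptbn1 and Sptbn4 were identical at 53.1% of aligned residues and Cntnap1 and Cntnap2 at 45.1%. Among the aligned pairs, the longest stretch of identical transcript sequence was 27 nt, in the pairs of Ank1 with Ank2 and of Sptbn1 with Sptbn4.

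Markers of cortical cell types were present in both libraries. The excitatory neuron gene Slc17a7 had 488 TPM in replicate 2 against 452 TPM in replicate 1, the inhibitory gene Gad1 249 TPM in replicate 2 against 245 TPM in replicate 1, and all markers of neurons, oligodendrocytes and their precursors, astrocytes, microglia and endothelium were detected in both. The gene tables held 30234441 estimated counts for replicate 2 and 28327434 for replicate 1, of which the 9 genes took 0.562% in replicate 2 and 0.57% in replicate 1. Over 20162 genes the chi-square of the counts was 13.2 per degree of freedom, so the libraries differed by more than counting noise. Any spread given covers 2 animals only.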

How the data were processed

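Total RNA from the left cortex of 2 mice was sequenced, 1 library each, in 1 group. Reads were mapped to mm10 with GENCODE M21, per the deposited readme, while the sources used here name no tool. Expected counts and estimated counts per gene and per transcript are the authors' deposited values, with ambiguous reads divided among features and no normalization. TPM values are also deposited, scaled by the authors over all features with spike-ins. The gene table and the transcript table that share 1 layout are the first table here, and another transcript table is the second. Hybrid reads were assigned on the reference genome, which may count CAST/EiJ reads less often. Counts were scaled by TMM in edgeR 4.0.16 on rounded counts (prior count 1) for genes averaging 50 counts or more, tested on simulated data, with DESeq2 1.42.0 size factors, count totals and spike-in totals as alternatives. With 1 library per animal no test was run, and counting errors cover counting only. Exon structure and sequence came from the GENCODE M21 annotation and transcripts, handled in Python 3.11.15 with pandas 2.3.3 and Biopython 1.88. The annotated length for a giant transcript was 10 kb, and an expressed gene had at least 1 TPM in both libraries. Levels were also summed over transcripts of at least 1 kb. An alternative coding exon had at least 2 TPM of including and of skipping transcripts in the first table, though not always in each animal. The members, the gene lists and the naming rule were chosen with earlier results of these data known. Named were all members, in each list the 4 highest genes by mean TPM at most and the 2 largest differences at most, up to 3 leading transcripts per member and all giant ankyrin transcripts. Other transcripts, chosen after their values were seen, are named where a form is described. Some genes that this rule would name are not reported here.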

Additional observations from a re-analysis of the deposited data

How the results depend on the processing

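The count of scaffold genes at 1.2-fold or more was 0 with TMM and stayed 0 with DESeq2 size factors, count totals, the second table, prior counts of 0.5 and 5, folds of 1.1 and 1.5 and no count filter, but was 3 with spike-in scaling, where all 9 differences were above 0. Under the first 3 of these the 9 differences moved by at most 0.02. The Ank2 giant share was 19.4% of TPM, 23.7% in the second table, 49.8% of counts and 24.3% over protein-coding transcripts, and leaving out either replicate gave 18.3% to 20.4%. For Ank3 it was 0 at 10 kb, 38.8% at 8 kb, where transcripts without the giant exon enter, and 18.6% by the giant exon. For Ank1 it was 0 at 10 kb and 70.4% at 8 kb, where full-length transcripts without any giant exon enter. Without either replicate both stayed 0. All 9 levels were lower in the second table, and the cause was not tested. Counting only transcripts of at least 1 kb, chosen after seeing the data, changed the order of Sptan1 with Sptbn1 and of Cntnap2 with Sptbn4. The partner genes detected were 67 at 1 TPM, and this count stayed within 1.5 times at 0.1 and 5 TPM and in the second table. No paired analysis was possible because there is 1 group. Transcripts under 1 kb rest on few counts, which limits their TPM.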
